A study of Rattus norvegicus with 18 samples.

Results

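Kidney signals of 10 genes were compared between a salt-sensitive and a congenic rat strain: the water channels Aqp1, Aqp2, Aqp3, Aqp4, Aqp6 and Aqp7, the vasopressin receptors Avpr1a and Avpr2, and the urea transporters Slc14a1 and Slc14a2. They were taken by name, with earlier results of these data known. All 10 were among the 10969 genes that the arrays measured with a probe set of a single gene symbol. A probe set reads 1 transcript through several short probes. The 10 genes had 16 probe sets, 15 on array type A, 0 on type B and 1 on type C. The Dahl Salt-sensitive (S) rat, which is inbred, becomes hypertensive when fed salt. The congenic strain has the S background and, on chromosome 9, a stretch inherited from a salt-resistant (R) rat. Per its labels this stretch holds a blood pressure quantitative trait locus. Total kidney RNA of 3 samples per strain was put on 3 array types, 18 arrays in all. The labels give no diet, age or sex, and do not say which part of the kidney was taken. They do not state that each sample came from its own animal, so the spread behind the p-values may be partly technical.

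Water follows salt across the tubule cells largely where their membranes hold water channels. Aqp1 gives the proximal tubule and thin descending limb a constant water permeability. In the collecting duct the permeability is set by vasopressin, which binds the receptor encoded by Avpr2, raises cyclic AMP, sends Aqp2 to the apical membrane and raises its transcription. The water leaves on the other side of the cell through Aqp3 and Aqp4. Urea carried by the products of Slc14a2 in the inner medulla and of Slc14a1 in the vasa recta helps to keep the medulla concentrated, so that water can be drawn out of the duct.

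All values are signals on the linear scale of the deposited tables, and all differences are log2 differences, congenic minus Dahl S, from limma (n = 3 per strain). Array medians were 34.8 to 45.9 signal units on type A and 61.1 to 75.6 on type C. Probe sets with a mean under 21.2 on type A or 37.7 on type C were not tested, and single values under those levels were not shown to be above background. The samples numbered 1 stood apart in both strains: the log2 ratio of 3 prime to 5 prime beta-actin signal was 0.49 and 0.50 in them, and 1.07 to 1.35 in the other 4. This ratio overlapped between the strains (difference +0.09, two-sided exact permutation p = 0.7, where 3 against 3 cannot give a p under 0.1).

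Of the 16 probe sets 12 were tested, covering 8 genes, and the mean was higher in the congenic kidneys in 12 of the 12. Over all 15721 tested probe sets the share that read higher was 49.5%. None of the 12 passed the threshold, an adjusted p of 0.05 in limma (0 called, as over all tested probe sets, 0%). At an unadjusted p under 0.05 there was 1 of the 12, against 2.49% of all tested probe sets in either direction and 1.17% with the congenic kidneys higher. That 1 was the Avpr2 probe set X83264exon_at, whose Dahl S mean lay under the filter, so that it entered the test only through its congenic values and had to differ. Its place in the counts supports nothing. Of the other 11, with both strain means at or above the filter, 11 read higher (median +0.23) and 0 had an unadjusted p under 0.05. In 2 of these 11 every congenic value was above every Dahl S value, against 3.59% of all tested probe sets. By gene, 8 of the 8 tested read higher, against 48.9% of all 8168 tested genes. The median difference was +0.25 over the 12 probe sets, against -0.003 over all tested ones. Probe sets of a gene, and genes measured in the same samples, are not independent. Without Dahl S sample 1 or congenic sample 2, 9 of the 12 read higher. Without the filter it was 14 of the 16. The genes were chosen with earlier results of these data known, so these counts are a description. The 95% confidence intervals reached 0.32 to 1.18 log2 units to either side of the difference, and 11 of the 12 included 0.

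**Figure D1:**
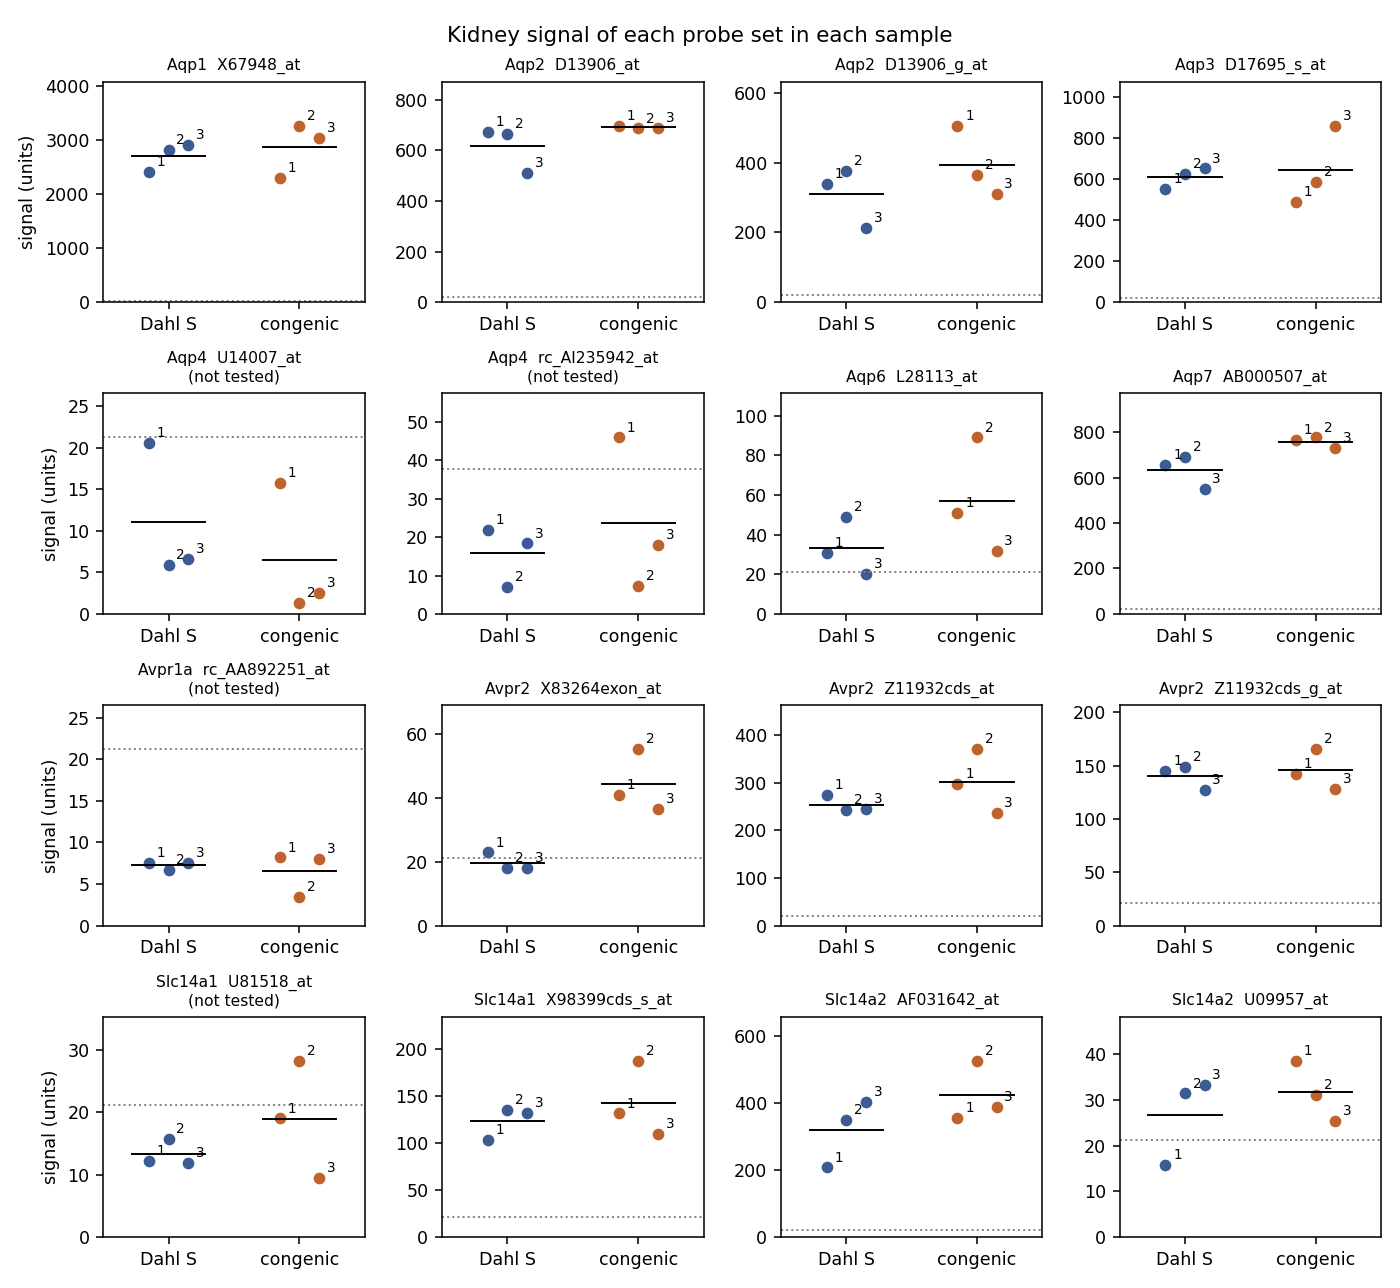
Signal (vertical axis, linear, from 0) of each of the 16 probe sets in the 3 Dahl S samples (blue) and 3 congenic samples (orange). Digits are sample numbers, horizontal bars are arithmetic means, and the dotted line is the level of the filter on dim probe sets. The congenic points lie above all Dahl S points in Aqp2 D13906_at, Aqp7 AB000507_at and Avpr2 X83264exon_at, and the groups overlap in the other panels.

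In 3 of the 12 tested probe sets every congenic value was above every Dahl S value, and in 0 every congenic value was below. Over all tested probe sets these shares were 3.59% and 3.49%. The 3 were an Aqp2, an Aqp7 and an Avpr2 probe set. The count depended on the scaling: it was 1 with arrays scaled to a common median, where only the Avpr2 probe set stayed apart, and 2 after quantile normalization, where Aqp2 overlapped. Without congenic sample 3 the count was 5, but groups separate more easily when a sample is left out. The shares over all tested probe sets were not worked out for these alternatives, so these counts have no background beside them.

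Of the receptors, Avpr2, the cyclic AMP-coupled vasopressin receptor of the collecting duct and thick limb, was measured by 3 probe sets that gave different sizes. The one made from an exon sequence (X83264exon_at) read 23.0, 18.1 and 18.0 in Dahl S and 41.1, 55.4 and 36.7 in congenic kidneys. Every congenic value was higher, but Dahl S samples 2 and 3 were under the filter level of 21.2, so the size of the difference is uncertain. With a Dahl S geometric mean of 19.6 and a congenic one of 43.7, it was tested only because the congenic values were high, and its difference of +1.16 (SE 0.42, 95% interval 0.19 to 2.13) is given as a description. With each sample left out in turn the difference was +0.99 to +1.29.

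The brighter Avpr2 probe set, Z11932cds_at, made from the coding sequence, read 273.9, 242.3 and 244.4 in Dahl S and 296.6, 370.4 and 237.1 in congenic samples. Here congenic sample 3 lay under all Dahl S samples and the groups overlapped (+0.23, SE 0.20, interval -0.23 to 0.69). The other coding-sequence probe set, Z11932cds_g_at, differed by +0.05 (SE 0.20), with 127.5 to 148.8 in Dahl S and 128.4 to 165.5 in congenic samples. Leaving out Dahl S sample 3 gave -0.02, and leaving out congenic sample 2 gave -0.05. Avpr1a, the calcium-coupled vasopressin receptor of vessels and other cells, was not tested: its 1 probe set lay between 3.4 and 8.2 in all 6 samples, under the filter level.

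Aqp2, the vasopressin-regulated water channel of collecting duct principal cells, was measured by 2 probe sets made from the same sequence. D13906_at read 672.2, 665.1 and 511.1 in Dahl S samples and 697.5, 687.2 and 687.6 in congenic samples. The congenic samples were nearly level (SD 0.01 log2 units, against 0.22 in Dahl S), and the distance between the strains came mostly from Dahl S sample 3. The difference was +0.18 (SE 0.15, interval -0.17 to 0.53, limma adjusted p = 0.9997), and +0.05 without Dahl S sample 3. The second probe set, D13906_g_at, read 339.3, 376.1 and 213.2 in Dahl S and 505.1, 364.0 and 310.3 in congenic samples. Dahl S sample 3 was again the lowest, and the groups overlapped (+0.36, SE 0.27, interval -0.26 to 0.97). Without Dahl S sample 3 this difference was +0.11.

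Aqp2, Aqp7 and Avpr2 had the probe sets whose strains did not overlap. In Avpr2 this was X83264exon_at, tested only through its congenic values, so its separation supports nothing. The brighter Avpr2 probe sets overlapped. The sequences before the Aqp2 and Avpr2 starts are shown for that choice of genes, and because Aqp2 transcription answers to cyclic AMP. They are the 250 bases before the RefSeq start in GRCr8, chr7:132590036-132590285 (plus strand) and chrX:156784889-156785138 (plus strand). Capitals mark TGACG, the core of the cyclic AMP response element, GATA, the core of the GATA factor motif, and TGGAAA, the start of the NFAT-type motif that the tonicity factor NFAT5 binds, each searched on both strands.
Aqp2: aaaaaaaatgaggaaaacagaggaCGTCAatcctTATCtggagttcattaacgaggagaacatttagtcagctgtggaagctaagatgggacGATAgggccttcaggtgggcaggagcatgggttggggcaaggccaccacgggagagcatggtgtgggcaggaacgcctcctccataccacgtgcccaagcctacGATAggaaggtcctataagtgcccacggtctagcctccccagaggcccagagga
Avpr2: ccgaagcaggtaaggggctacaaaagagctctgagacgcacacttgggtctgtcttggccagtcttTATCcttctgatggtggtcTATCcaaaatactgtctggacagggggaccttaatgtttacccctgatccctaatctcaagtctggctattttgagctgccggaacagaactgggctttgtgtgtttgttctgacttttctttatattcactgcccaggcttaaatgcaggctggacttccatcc
The Aqp2 stretch held TGACG once and GATA 3 times, and the Avpr2 stretch held GATA 2 times. RefSeq gave 11 such stretches for 9 of the 10 genes. TGACG was in 2 of the 11 (Aqp2 and Avpr1a), against 18.2% of all 33469 promoters of that length. GATA was in 5 of the 11, against 55.9%, and TGGAAA in 3 of the 11, against 19.7%. A match is a description of letters, not of a bound site.

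The other collecting duct channels differed by less than their spread or were too dim. Aqp3, which lets water and glycerol out across the basolateral membrane of principal cells, read 550.3, 623.2 and 651.3 in Dahl S and 489.5, 584.7 and 858.5 in congenic samples. The congenic samples held both the lowest and the highest of the 6 values (+0.05, SE 0.21, interval -0.45 to 0.54). The difference was -0.18 without congenic sample 3 and -0.02 without Dahl S sample 1. The probes of the Aqp3 probe set (D17695_s_at) may match more than 1 transcript. Aqp4, the other basolateral channel, was not tested. Its type A probe set read 1.3 to 20.6 and its type C probe set 7.0 to 46.0, with 6 and 5 of the 6 samples under the filter level, so no difference is given.

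Aqp6, a channel of intracellular vesicles in acid-secreting intercalated cells, read 30.8, 49.0 and 20.1 in Dahl S and 50.8, 89.0 and 31.8 in congenic samples. The groups overlapped, and Dahl S sample 3 was under the filter level. Its difference of +0.75 had the widest interval of the 12 (SE 0.51, interval -0.43 to 1.93). Markers of intercalated cells other than Aqp6 summed to 3013 to 3468 signal units in Dahl S and 3115 to 3568 in congenic samples, over 4 tested genes of 5 on the arrays. Of these 3 were higher and 1 lower: the anion exchanger Slc26a4 differed by +0.27 (SE 0.21) and the ammonia channel Rhcg by -0.20 (SE 0.23). Their part in the Aqp6 value was not tested.

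In the proximal tubule, Aqp1, the constitutive water channel, gave 2404.7, 2818.3 and 2900.1 in Dahl S and 2298.8, 3257.3 and 3037.8 in congenic samples. In both strains sample 1 was the lowest, and the groups overlapped (+0.07, SE 0.16, interval -0.31 to 0.45, which is 0.808 to 1.37 on the fold scale). The difference turned to -0.03 on leaving out congenic sample 2 and to -0.01 on leaving out Dahl S sample 1. It was +0.22 without congenic sample 1. Aqp7, which carries glycerol and water across the brush border of the straight proximal tubule, had the narrowest interval of the 12. It read 654.6, 688.9 and 551.2 in Dahl S and 763.5, 776.1 and 729.0 in congenic samples, without overlap. The difference was +0.27 (SE 0.14, interval -0.06 to 0.59, 1.20-fold, limma adjusted p = 0.9997), and +0.17 without Dahl S sample 3. Aqp7 is also a gene of fat cells. Of 9 fat markers on the arrays, Adipoq, Cfd, Fabp4 and Plin1 were under the filter, and the summed signal of the other 5 was 1106 to 1514 in Dahl S and 1142 to 1478 in congenic samples.

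**Figure D2:**
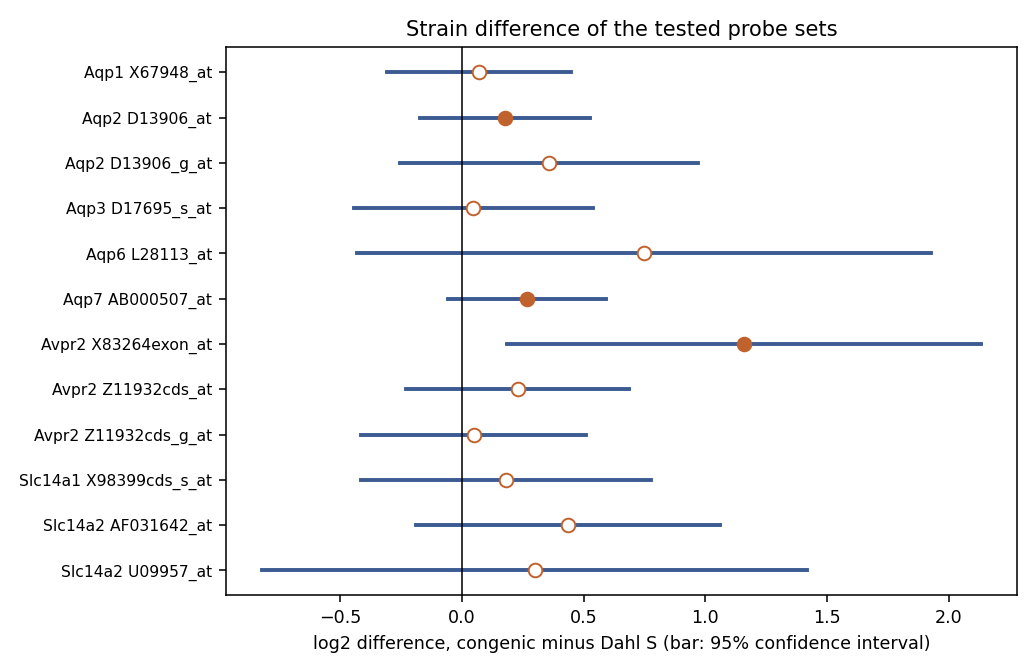
Log2 difference, congenic minus Dahl S (horizontal axis), of the 12 tested probe sets, with 95% confidence intervals from limma as bars (n = 3 per strain). Filled points mark probe sets whose congenic samples all lay above the Dahl S samples. All 12 points lie to the right of 0, and the interval of Avpr2 X83264exon_at (0.19 to 2.13), a probe set tested only through its congenic values, is the one that does not include 0.

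The urea transporters overlapped between the strains. Slc14a2 encodes the UT-A transporters of the inner medullary collecting duct and thin descending limb, and its brighter probe set (AF031642_at) read 207.8, 349.7 and 403.7 in Dahl S and 356.0, 524.9 and 388.5 in congenic samples. Sample 1 was the lowest in both strains (+0.44, SE 0.27, interval -0.19 to 1.06). Without Dahl S sample 1 the difference was +0.15. The dimmer one (U09957_at), from another transcript sequence, read 15.7 to 33.2 in Dahl S and 25.4 to 38.5 in congenic samples (+0.30, SE 0.49). It read -0.05 without Dahl S sample 1, the sample that was under the filter level.

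Slc14a1 encodes UT-B, the urea transporter of the descending vasa recta and of red blood cells. Its tested probe set (X98399cds_s_at, whose probes may match more than 1 transcript) read 103.9, 135.5 and 131.9 in Dahl S and 131.6, 187.6 and 109.5 in congenic samples, with overlap (+0.18, SE 0.26, interval -0.42 to 0.78). Without congenic sample 2 it read -0.03. The second, U81518_at, was not tested, with 5 of 6 samples under the filter level. Among blood cell markers 1 of 6 tested genes was higher and 5 lower (median -0.44). The higher one, Slc4a1, is also in the intercalated cell list. In each of the 5 lower ones Dahl S sample 3 held the highest value, so the median leans on that sample. The alpha-globin Hba-a1 was 36676.3 in Dahl S sample 3, against 5917.3 to 11704.4 elsewhere. The part of blood in the Slc14a1 values was not tested.

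**Figure D3:**
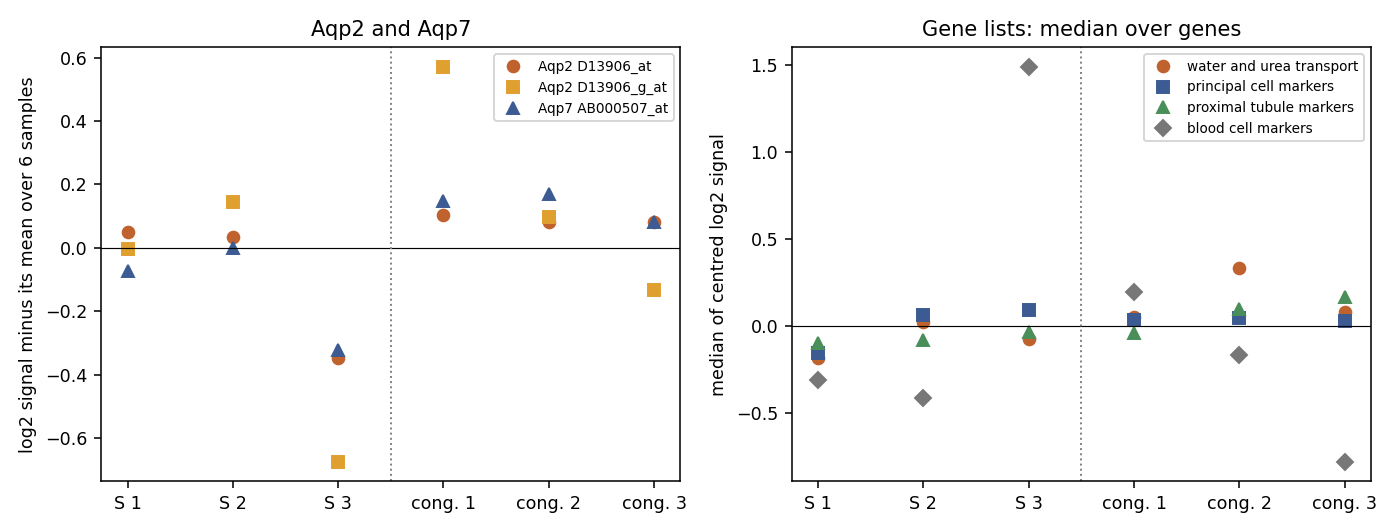
Left, log2 signal of the 2 Aqp2 probe sets and of Aqp7 in each sample (S, Dahl S; cong., congenic), relative to the mean of that probe set over the 6 samples. Right, median of the same measure over the 8 tested water and urea transport genes and over marker lists. Dahl S sample 3 is the lowest in Aqp2 and Aqp7 and the highest in blood cell markers (1.49).

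The profiles over the 6 samples were set beside that of Aqp2. Likeness to Aqp2 (D13906_at) was measured as the root mean square difference of centred log2 signal over the 6 samples, for 8167 other genes with 1 tested probe set each. Aqp7 was 16th nearest (0.067 log2 units), whereas Avpr2, Aqp1, Slc14a1, Aqp3, Slc14a2 and Aqp6 lay between 0.22 and 0.58, with 19.2% to 82.7% of all genes nearer than they were. The second Aqp2 probe set itself lay 0.25 from the first, so distances of that size do not tell genes apart. The 5 nearest genes were Nrdc, a metalloendopeptidase (0.036), Slc22a6, the organic anion transporter of the proximal tubule (0.041), Nup98, a nuclear pore protein (0.044), Aldh4a1, an enzyme of proline breakdown (0.044), and Eng, the endothelial receptor endoglin (0.047). With this many genes and 6 samples, near profiles arise readily, and no test was made.

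The hormone pathway upstream of Aqp2 showed values on both sides of 0. Of 48 genes of vasopressin and cyclic AMP signalling on the arrays 34 were tested, of which 19 were higher and 15 lower (median +0.03, against -0.006 over all 8168 tested genes), and 0 were called in limma (0% of all genes), with 0 at an unadjusted p under 0.05 (2.35% of all genes). The 2 with the smallest p were the kinase Sgk1 (+0.54, SE 0.30) and the anchoring protein Akap13 (-0.38, SE 0.22). Sgk1 overlapped between the strains, with 238.8 to 297.1 in Dahl S and 241.7 to 573.3 in congenic samples. The stimulatory G protein subunit Gnas (+0.04, SE 0.15), the adenylyl cyclase Adcy6 (+0.03, SE 0.21) and the catalytic kinase subunit Prkaca (-0.21, SE 0.18), named after their values were seen, are the core of the chain from the receptor to the kinase. In 3 of the 34, Akap13, Prkaca and the transcription factor Creb3l1 (-0.25, SE 0.16), every congenic value was below every Dahl S value (3.8% of all genes), and in 0 above (3.82%). With the mean of all probe sets of a gene in place of the brightest one, the median of the list was -0.06.

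Of 34 tested genes of Aqp2 vesicle trafficking 14 were higher and 20 lower (median -0.01). Of the 34, 0 were called (0% of all genes), and 0 had an unadjusted p under 0.05 (2.35%). The membrane fusion proteins Snap23 and Stx4 had the smallest p values and opposite directions. Snap23 read 125.1 to 151.4 in Dahl S and 182.4 to 235.2 in congenic samples (+0.57, SE 0.26), without overlap. Stx4 read 233.6 to 301.9 and 137.7 to 245.9 (-0.58, SE 0.27), with overlap. Snap23 was the 1 gene of the list with every congenic value higher (3.82% of all genes). In 2 every congenic value was lower (3.8%), the membrane-binding protein Anxa2 (-0.24, SE 0.14) and the myosin light chain Myl12b (-0.19, SE 0.12).

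Genes of the response to hypertonicity were higher in 8 of 14 (median +0.01). This list mixes genes that take up or make protective solutes with chaperone, stress and other genes. The 6 lower ones were Hspa1a, Hspb1, Chka, Ddit3, Txnrd1 and Fxyd2, so the median does not describe solute uptake and synthesis alone. Of the 14, 0 were called (0% of all genes), and 0 had an unadjusted p under 0.05 (2.35%). The myo-inositol transporter Slc5a3 gave 102.6 to 112.3 in Dahl S and 118.0 to 185.7 in congenic samples, without overlap (+0.53, SE 0.23). It was the 1 gene of the list with every congenic value higher (3.82% of all genes), and 0 had every congenic value lower (3.8%). The sorbitol-making aldose reductase Akr1b1 differed by +0.23 (SE 0.16) and Nfat5, the transcription factor of this response, by +0.01 (SE 0.17).

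**Figure D4:**
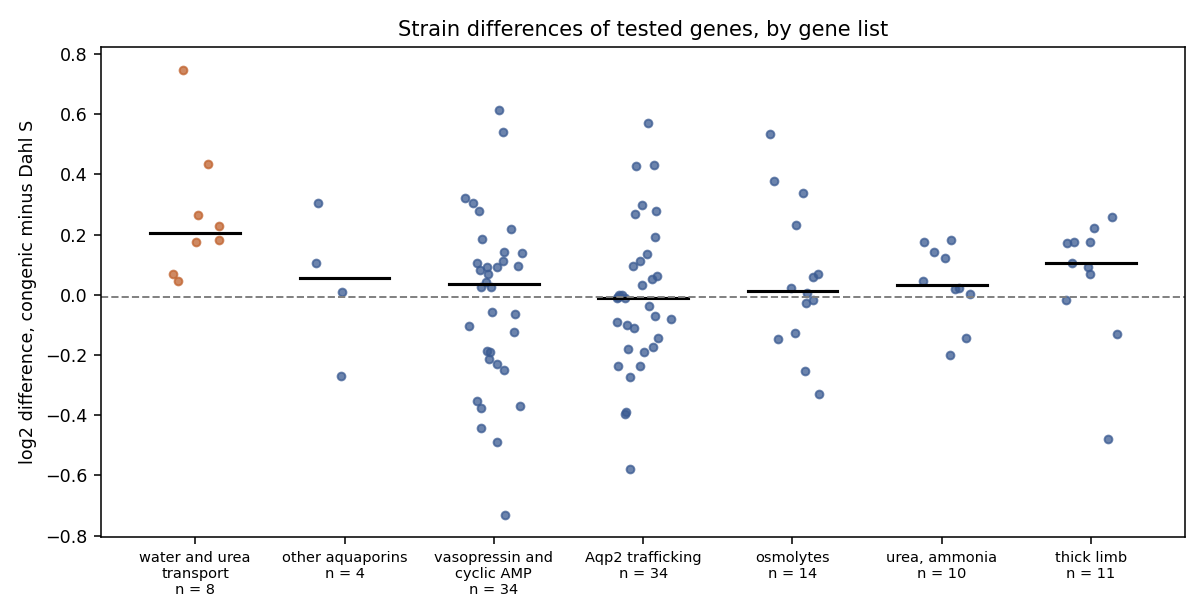
Log2 difference, congenic minus Dahl S (vertical axis), of each tested gene (1 probe set per gene) in the water and urea transport genes (orange) and in 6 lists of related genes (blue). Black bars are list medians and the dashed line is the median of all tested genes (-0.006). The 8 orange points lie above 0 with a median of +0.20, and the other lists spread to both sides. Cell type markers are not drawn. Proximal tubule markers were higher in 17 of 19 and thick ascending limb markers in 7 of 8. Principal cell markers were higher in 5 of 11 and leukocyte markers in 2 of 8.

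The other 3 pathway lists gave 0 called genes (0% of all genes) and 0 at an unadjusted p under 0.05 (2.35%). Of 10 genes of urea and ammonia handling 8 were higher (median +0.03), with the glutamate dehydrogenase Glud1 at +0.18 (SE 0.13) and the urea cycle enzyme Asl at -0.14 (SE 0.14). Of 11 thick limb genes that drive or regulate the medullary gradient 8 were higher (median +0.11). The potassium channel Kcnj1 was at +0.26 (SE 0.15) and the tight junction gene Cldn10 at +0.22 (SE 0.20). The 3 lower genes were Slc12a1 (-0.48, SE 0.83), Cldn19 (-0.13, SE 0.22) and Fxyd2 (-0.02, SE 0.18). Congenic sample 2 read 11.4 in Slc12a1, under the filter level. Kcnj1 read 603.9 to 744.3 in Dahl S and 755.2 to 881.6 in congenic samples, without overlap. It was the 1 of the 11 with every congenic value higher (3.82% of all genes). Other aquaporins were higher in 3 of 4 tested genes (median +0.06): Aqp5 differed by +0.30 (SE 0.39), Aqp9 by -0.27 (SE 0.52), the lens channel Mip by +0.10 (SE 0.35) and Aqp11, an intracellular channel of the proximal tubule, by +0.01 (SE 0.17).

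In whole-tissue RNA, fewer cells of a type and less RNA per cell cannot be told apart, so markers of the cells that hold these genes are given beside them. Principal cell markers, a list without water channels, were tested in 11 of 11 genes on the arrays, 5 higher and 6 lower (median -0.05), and summed to 2095 to 2485 signal units in Dahl S and 2172 to 2335 in congenic samples. Proximal tubule markers other than Aqp1 and Aqp7 were higher in 17 of 19 (median +0.14), with sums of 80162 to 84778 and 83080 to 98571. Thick ascending limb markers were higher in 7 of 8 (median +0.18), with sums of 8476 to 10653 and 9700 to 10371. Kcnj1, Casr, Slc12a1, Umod and Ptger3 are in this list and in the thick limb pathway list, so these lists are not separate observations. Markers of the thin limb and vasa recta, where Aqp1, Slc14a2 and Slc14a1 are found, were higher in 2 of 2 tested (median +0.19), with Cldn4 under the filter. Their sums did not overlap, with 539 to 619 in Dahl S and 654 to 741 in congenic samples. Of the 2 genes, the endothelial Emcn differed by +0.36 (SE 0.16), without overlap. The other, Slc4a11, differed by +0.02 (SE 0.16), with overlap. Without overlap, 4 of the 19 proximal tubule, 3 of the 8 thick limb and 0 of the 11 principal cell markers were higher. The share over all genes was 3.82%. Leukocyte markers were lower in 6 of 8 tested (median -0.34), and Ptprc, Itgam, Cd53 and Cd8a were under the filter. Of the 8, 3 were lower without overlap (3.8% of all genes). Among these, Coro1a, an actin-binding protein of leukocytes (-0.81, SE 0.33), was the 1 with an unadjusted p under 0.05 in limma (2.35% of all genes). The part of cell makeup in the differences of the transport genes was not tested.

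None of the 10 genes lies on chromosome 9, the chromosome of the introgressed segment (0 of 10, by gene ID in the GRCr8 table). Several are neighbours in the gene order: Aqp2, Aqp5 and Aqp6 follow one another on chromosome 7, and Aqp3 and Aqp7 on chromosome 5, each pair with 0 protein-coding genes between. Slc14a1 and Slc14a2 are adjacent on chromosome 18. Neighbours gave different sizes, with +0.18 for Aqp2 and +0.75 for Aqp6, +0.05 for Aqp3 and +0.27 for Aqp7, and +0.18 for Slc14a1 and +0.44 for Slc14a2. The differences between neighbours were not tested.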

How the data were processed

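Kidney RNA of 3 Dahl S and 3 congenic samples was measured on 3 array types, and groups and sample numbers came from the titles. The authors deposited linear intensity values. Judged from these values, each array had been scaled, with a mean of 150.1 to 150.2 after trimming 2% at each end, so no further scaling was applied. The summarisation software was not given in the sources used here. Values below the 10th percentile of an array type were raised to it (3.1 on type A, 4.83 on type C) before log2. The 15721 of 26202 probe sets with a mean log2 signal at or above the 40th percentile of the array type were tested. The platform annotation gave 1 symbol for 18178 probe sets, several for 391 (not named) and none for 7633. All 10 gene IDs matched the GRCr8 table.

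The comparison used limma 3.58.1 under R 4.3.3 (lmFit; eBayes with an intensity trend), with 1 fit per array type, with Benjamini-Hochberg adjustment over all types together. The procedure was tested on simulated data. A gene in a list was represented by its brightest probe set. Every probe set of the 10 genes is accounted for, though not each by its identifier. Of each pathway list, genes with an unadjusted p under 0.05 are named, or otherwise the 2 with the smallest p. Cell type markers and other list genes were named after their values were seen. The genes and lists were chosen with earlier results of these data known. Alternatives covered floor, filter, scaling, variance model, sample number, left-out samples and adjustment. Figures used matplotlib 3.10.9. The number of arrays limits the precision.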

Additional observations from a re-analysis of the deposited data

How the results depend on the processing

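Under the alternatives run, limma called 0 probe sets over the whole comparison, 0 of the water and urea transport genes and 0 genes of the related lists, and the smallest adjusted p of a transport probe set was 0.923. Of 225 differences of the 12 tested transport probe sets under alternatives, 216 kept their direction. That count says little, because settings of floor, filter, variance model, sample number and adjustment left these differences as they were. Only the scaling and the left-out samples could turn one. The 9 that turned belonged to 5 probe sets. With each sample left out in turn, Aqp1 ranged from -0.030 to 0.22, Aqp3 from -0.18 to 0.22, Avpr2 Z11932cds_g_at from -0.050 to 0.13, Slc14a1 X98399cds_s_at from -0.034 to 0.35 and Slc14a2 U09957_at from -0.049 to 0.49. Without both samples numbered 1, Slc14a2 U09957_at read -0.20. The cause was not tested.

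The number of probe sets with an unadjusted p under 0.05 was 391, and it was 797 without the filter, 259 with the filter at the 60th percentile (more and fewer probe sets tested), 704 with a term for the samples numbered 1 and 345 to 600 with 1 sample left out, the highest without congenic sample 1. Among transport probe sets it was 1, and it was 2 without the filter or with that term, 0 with the filter at the 60th percentile or without both samples numbered 1, and 0 to 1 with 1 sample left out, 0 without Dahl S sample 2 or 3 or congenic sample 1 or 2. The 1 was Avpr2 X83264exon_at, which reached the filter only through its congenic values. Where there were 2, the second was Aqp7 AB000507_at without the filter (limma unadjusted p = 0.045). With the term for the samples numbered 1 it was Slc14a2 AF031642_at (limma unadjusted p = 0.047). Neither was called. The transport probe sets with every congenic value above every Dahl S value numbered 3, and 1 under median scaling and 3 to 5 with 1 sample left out. Fewer samples separate more easily, and the share over all probe sets under these alternatives was not worked out.

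With the sample number as a replicate block 819 probe sets had an unadjusted p under 0.05 and 0 were called. Deviations from the strain means correlated by 0.45, 0.08 and 0.18 between samples of the same number, and congenic sample 2 correlated better with Dahl S sample 3 (0.15), so the numbers were not taken to pair the samples.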

Other observations

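The vasopressin receptor gene Avpr1b, known from the pituitary, was noticed after its values were seen. Its probe set with a single gene symbol read 30.1, 19.1 and 35.0 in Dahl S and 16.1, 9.4 and 4.7 in congenic kidneys, so every congenic value was lower. The mean was under the filter level of type A, and the probe set was not tested.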
